A study of Mus musculus with 22 samples.

Results

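The adrenergic receptors are the cell surface receptors for noradrenaline and adrenaline. The 7 genes described here were taken by name from a list, Adra1a, Adra1b, Adra1d, Adra2a, Adra2b, Adra2c and Adrb1, and matched to the Ensembl identifiers of the deposited table through GENCODE M21. They are 7 of the 23119 genes in the table, and the rule that lists them uses no measured value. RNA of adult male C57BL/6J mice was sequenced from striatal bulk tissue in 22 libraries. In 1 group of mice, oxycodone, an opioid analgesic, was self-administered at 0.25 mg/kg per infusion, 4 hours a day for 14 days. Yoked controls, which do not set their own infusions, received saline on the same hours and days. There were 6 libraries of each treatment from ventral striatum and 5 of each from dorsal striatum. No genetic change, exact age or tissue pooling is named for any group. The design text speaks of 5 to 6 mice a group, but the titles give the same number to 2 pairs of equally treated dorsal libraries. Each dorsal number also recurs in a ventral library of the same treatment. Separate animals thus cannot be assumed, and p-values measure the spread between these libraries.

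Adrenergic receptors are G protein-coupled receptors of 3 classes. The alpha1 receptors act through Gq and phospholipase C, the alpha2 receptors through Gi and Go, which lower cyclic AMP, and the beta receptors through Gs, which raises it. The dorsal striatum is known for sparse noradrenergic fibres, the shell of the nucleus accumbens in the ventral striatum for denser ones, and the striatum as a whole for the alpha2C receptor on its projection neurons. The noradrenergic cell bodies lie in the brainstem.

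The alpha1 genes are Adra1a (ENSMUSG00000045875, GRCm38 chromosome 14, 66635251 to 66771168, plus strand), Adra1b (ENSMUSG00000050541, chromosome 11, 43774606 to 43901210, minus strand) and Adra1d (ENSMUSG00000027335, chromosome 2, 131545850 to 131562283, minus strand). The alpha2 genes are Adra2a (ENSMUSG00000033717, chromosome 19, 54044151 to 54048982, plus strand), Adra2b (ENSMUSG00000058620, chromosome 2, 127363208 to 127367221, plus strand) and Adra2c (ENSMUSG00000045318, chromosome 5, 35278319 to 35281763, plus strand). Adrb1, the beta1 gene, is ENSMUSG00000035283 on chromosome 19, 56722199 to 56733113, plus strand. All are annotated as protein coding. Exons of Adra1d share 147 bases with an antisense gene, Gm14285, and the strand setting of the counting is not given in the sources used here, so reads of that stretch cannot be told apart.

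RefSeq windows of 250 bases before a transcription start (GRCm38.p6) are shown for Adrb1, which differed between regions, for Adra1b, whose level was extreme in 1 library, and for Adra2b, which passed no test. Capitals mark CCGCCC, the Sp1 box GGGCGG read on the other strand. Each run reads 5′ to 3′ on the strand of its gene.
Adrb1, chr19:56721867-56722116, plus strand: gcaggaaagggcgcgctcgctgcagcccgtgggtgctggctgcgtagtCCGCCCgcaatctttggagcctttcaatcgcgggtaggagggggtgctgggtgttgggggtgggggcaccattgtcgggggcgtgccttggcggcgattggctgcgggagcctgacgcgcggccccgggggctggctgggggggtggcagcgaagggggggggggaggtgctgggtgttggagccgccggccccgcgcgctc
Adra1b, chr11:43901238-43901487, minus strand: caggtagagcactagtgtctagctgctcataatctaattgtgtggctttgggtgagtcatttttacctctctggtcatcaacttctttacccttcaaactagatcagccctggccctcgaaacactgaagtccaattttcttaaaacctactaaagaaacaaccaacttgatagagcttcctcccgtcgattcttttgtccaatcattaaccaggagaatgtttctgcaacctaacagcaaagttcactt
Adra2b, chr2:127362929-127363178, plus strand: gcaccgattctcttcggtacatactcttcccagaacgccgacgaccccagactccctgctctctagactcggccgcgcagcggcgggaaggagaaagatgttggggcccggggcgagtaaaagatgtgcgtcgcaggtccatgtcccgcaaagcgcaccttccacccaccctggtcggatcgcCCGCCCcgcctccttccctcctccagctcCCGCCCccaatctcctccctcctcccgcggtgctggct
The letters GGGCGG, searched on both strands, occurred 1 time for Adrb1, 0 times in the Adra1b window shown and 2 times for Adra2b, and in 32.7% of 32851 mouse windows of that length. The letters TGACG, the core of the cyclic AMP response element, occurred 1 time for Adrb1, 0 times in the other windows shown and in 17.8% of all windows. CCAAT occurred 1 time for Adrb1 and Adra2b and 2 times for Adra1b, against 33.8% of all windows holding it, and TATAAA occurred in none of the 3, against 12.4%. No match overlapped a match of another motif in these windows. GC content was 74.0% for Adrb1, 66.0% for Adra2b and 41.6% for the Adra1b window shown, beside a median of 52.4% over all windows. RefSeq gives Adra1b a further window, chr11:43836490-43836739, which lies within the annotated gene and is not printed; it held 72.8% GC, GGGCGG 1 time and CCAAT 0 times. These matches are descriptions of the letters and were not measured as binding sites.

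Library totals ran from 8408829 to 11000345 counts in ventral and from 11314079 to 21921963 in dorsal libraries. Mitochondrial genes took 5.98% to 9.25% of ventral and 2.93% to 4.12% of dorsal counts. Of the values from 1 to 99, 63.9% to 72.3% were even numbers in dorsal libraries and 45.5% to 46.9% in ventral ones. The Adra1b and Adra1d counts were even in 10 of 10 dorsal libraries, with 2 Adra1d counts of 0 among them. Of the 10, those of Adra2c and Adrb1 were even in 8 each, Adra2a in 7, Adra2b in 6 and Adra1a in 5. Library totals, mitochondrial shares and shares of even values follow the region exactly. A difference between regions and a difference in how the libraries were made and counted thus cannot be told apart. The sixth replicate of each ventral group stood apart. In saline ventral replicate 6, cortical glutamatergic neuron markers summed to 1840 CPM (counts scaled to the library total), against 131 to 454 in the other 5, and markers common to the medium spiny neurons, the projection neurons of the striatum, to 578 against 2440 to 2951. In the 10 dorsal libraries the latter summed to 4706 to 5579 CPM. In oxycodone ventral replicate 6, dorsal striatum markers summed to 2798 CPM, against 1256 to 1502 in the other 5. Its choroid plexus and ependyma markers summed to 1801 against 34.7 to 72.4. In dorsal libraries the choroid plexus and ependyma markers summed to 385 to 3591 CPM in saline and 81.4 to 3288 in oxycodone mice. In saline ventral libraries they summed to 13.8 to 54.5. The part of this tissue in the region comparisons was not tested.

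**Figure D1:**
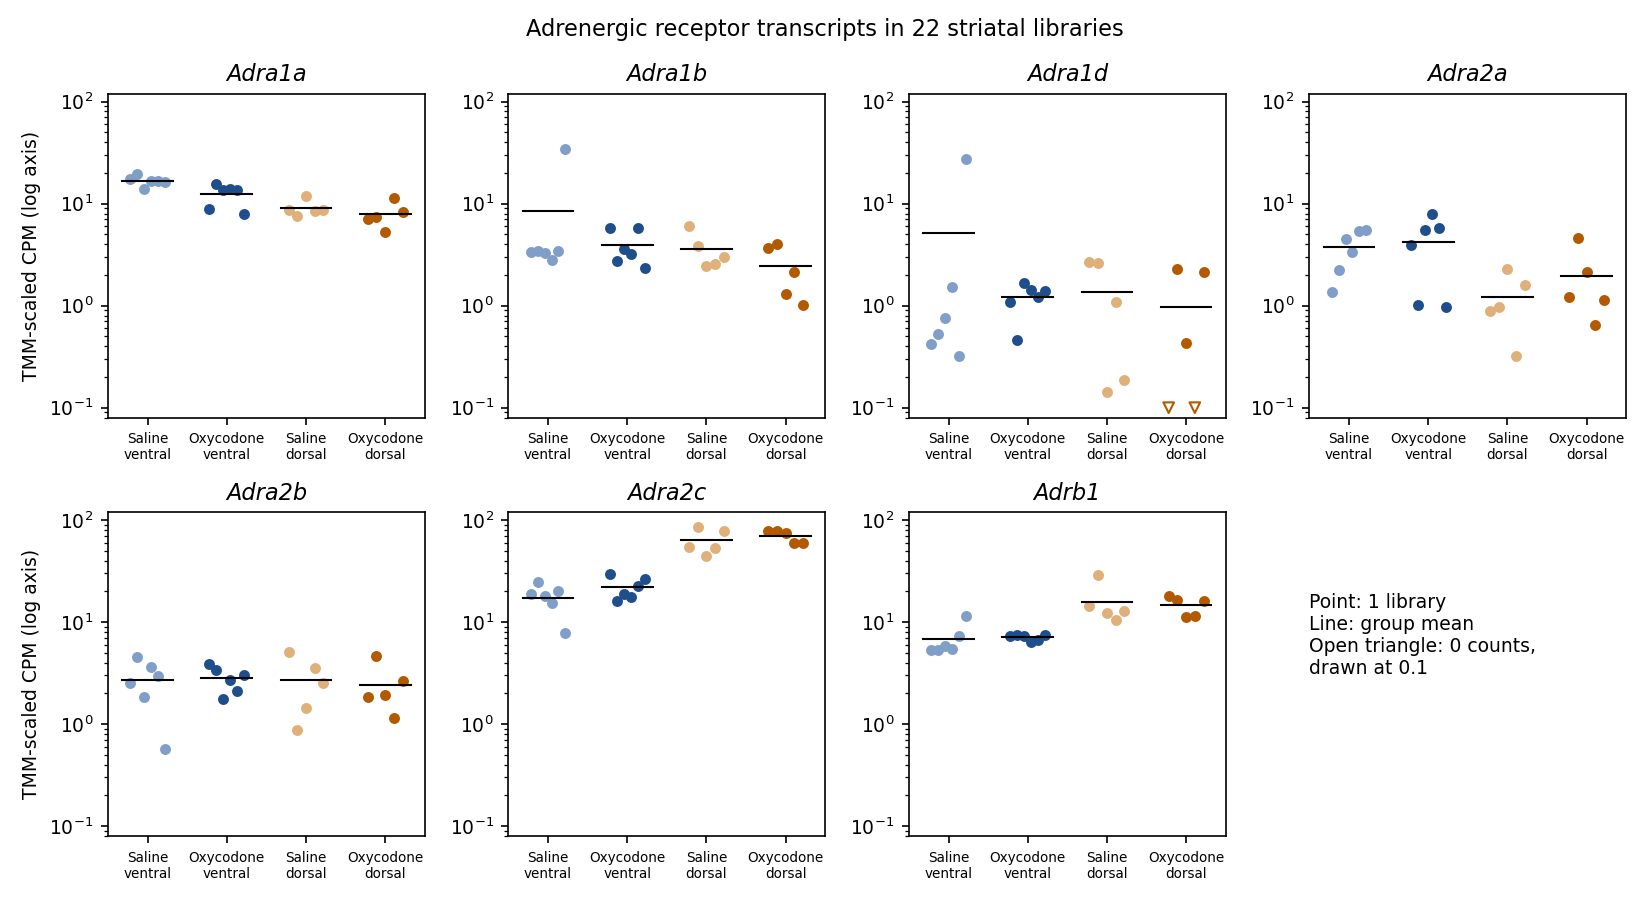
Level of each receptor transcript in each of the 22 libraries, in TMM-scaled CPM on a log axis, by group. Points are libraries, lines are group means, and the 2 open triangles are libraries with 0 counts, drawn at 0.1. All 10 dorsal libraries lie above all 12 ventral libraries for Adra2c, and saline ventral replicate 6 lies far above the other 5 of its group for Adra1b and Adra1d.

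Compared per kilobase of merged exons, as CPM per kilobase, Adra2c was first of the 7 in each of the 4 groups. Its mean level was 5.06 ± 1.63 in saline ventral and 6.36 ± 1.54 in oxycodone ventral libraries (SD, n = 6 and 6), 18.3 ± 5.03 in saline dorsal and 20.3 ± 2.79 in oxycodone dorsal libraries (SD, n = 5 and 5). Adrb1 came second in 3 groups, at 2.09 ± 0.134 in oxycodone ventral (SD, n = 6), 4.64 ± 2.19 in saline dorsal and 4.31 ± 0.902 in oxycodone dorsal libraries (SD, n = 5 each). In those 3 groups the ranges of Adra2c and Adrb1 did not overlap, nor did those of Adrb1 and the gene after it.

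Below Adrb1 most neighbours in the order were not separated. In oxycodone ventral libraries Adra1a, at 1.41 ± 0.357 CPM per kilobase, was followed by Adra1b at 1.15 ± 0.44, Adra2a at 0.864 ± 0.572, Adra2b at 0.702 ± 0.196 and Adra1d at 0.635 ± 0.22 (SD, n = 6), and each of these overlapped the next. In saline dorsal libraries Adra1b (1.06), Adra1a (1.04), Adra1d (0.708), Adra2b (0.675) and Adra2a (0.251) followed, again with overlapping ranges. The oxycodone dorsal order was Adra1a (0.901), Adra1b (0.718), Adra2b (0.61), Adra1d (0.514) and Adra2a (0.404), with every neighbouring pair overlapping. Adra2a, the gene of the alpha2A receptor, thus had the lowest mean in both dorsal groups. In oxycodone dorsal libraries, however, Adra1d lay above Adra2a in only 2 of 5, so the last place is not settled there.

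The saline ventral order depended on 1 library. With all 6 libraries Adra1d (2.71 ± 5.73 CPM per kilobase) and Adra1b (2.48 ± 3.72) came next after Adra2c (SD, n = 6). Without replicate 6 the order was Adra2c at 5.62, Adra1a at 1.93, Adrb1 at 1.73, Adra1b at 0.96, Adra2b at 0.777, Adra2a at 0.697 and Adra1d at 0.373. Taking the longest annotated transcript as the length moved 8 of the 28 positions, and Adra1a, with 8728 bases of merged exons and a longest transcript of 4282, gained most from it. With that length Adra1a, at 2.88, stood above Adrb1, at 2.39, in oxycodone ventral libraries, so the second place of Adrb1 held under both lengths only in the dorsal groups. Adra2c was first under both lengths.

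The share of the receptor sum gives the balance of the classes within a library. Adra2c made up 47.7% ± 7.04 of the summed per-kilobase level in oxycodone ventral (SD, n = 6), 68.5% ± 5.72 in saline dorsal and 73.2% ± 4.81 in oxycodone dorsal libraries (SD, n = 5 each). In saline ventral libraries the Adra2c share ran from 6.74% in replicate 6 to 51.4%, with a median of 45.5%. The lowest dorsal share, 61.7%, lay above the highest ventral share, 58.3%. The alpha1 genes together took 24.4% ± 4.06 in oxycodone ventral libraries (SD, n = 6) and 10.7% ± 3.45 and 7.69% ± 2.32 in saline and oxycodone dorsal libraries (SD, n = 5 each), but 79.1% in saline ventral replicate 6. The beta1 share was 13.7% ± 2.44 and 16.1% ± 2.52 in saline and oxycodone ventral (SD, n = 6 each) and 17.0% ± 3.9 and 15.6% ± 2.54 in saline and oxycodone dorsal libraries (SD, n = 5 each), and its ranges overlapped between all groups.

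**Figure D2:**
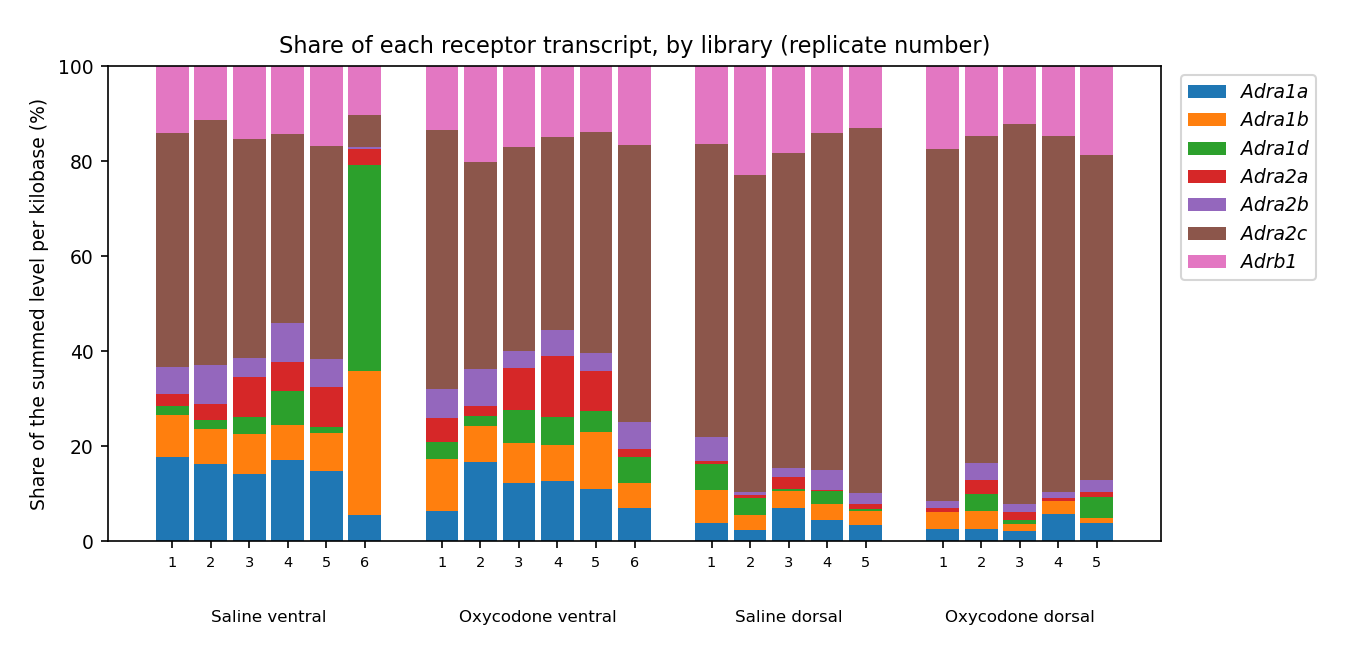
Share of each receptor gene in the summed level per kilobase, in percent, for each library by group and replicate number. Adra2c holds 61.7% or more in each dorsal library and at most 58.3% in each ventral one, and saline ventral replicate 6 differs from the other libraries by its Adra1b and Adra1d shares.

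The comparison of dorsal with ventral striatum was made separately in saline and in oxycodone mice, which share no library. All 7 genes passed the filter on low counts in each comparison made, and a gene is called where the edgeR quasi-likelihood p, adjusted by Benjamini-Hochberg over all genes tested, is under 0.05. In saline mice 4 of 7 receptor genes were called, 2 higher and 2 lower in dorsal striatum, beside 45.8% of all 14433 genes. In oxycodone mice 3 of 7 were called, 2 higher and 1 lower, beside 47.2% of all 14375 genes. These shares are near those of all genes, so the count by itself sets the family apart in neither. The median log2 change of the 7 was -0.90 in saline and -0.33 in oxycodone mice, against -0.01 over all genes in each. The saline median rested on saline ventral replicate 6: without it the filter removed Adra1d, and the median of the 6 receptor genes left was -0.02, with 4 called. Without oxycodone ventral replicate 6 the oxycodone median of the 7 was -0.26, with 3 called.

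Adra2c, the gene of the alpha2C receptor, was higher in dorsal striatum. In saline ventral libraries its lowest, median and highest levels were 7.74, 18.5 and 24.5 CPM, and in oxycodone ventral libraries 16.2, 20.7 and 29.7 CPM. The saline dorsal libraries held 54.9, 85.3, 44.6, 53.4 and 77.3 CPM and the oxycodone dorsal ones 77.8, 77.5, 75.3, 59.2 and 59.5 CPM. Every dorsal library thus lay above every ventral one. The means went from 17.4 ± 5.61 to 63.1 ± 17.3 CPM in saline mice (SD, n = 6 and 5), a 3.61-fold difference, which is 1.85 on the log2 scale (SE 0.25, edgeR adjusted p 5.49e-05). In oxycodone mice they went from 21.9 ± 5.31 to 69.9 ± 9.63 CPM (SD, n = 6 and 5), 3.13-fold or 1.65 on the log2 scale (SE 0.15, edgeR adjusted p 3.49e-07). The ratio of dorsal to ventral means was 3.62 in saline and 3.19 in oxycodone mice with all libraries, and 3.26 and 3.33 without the sixth ventral replicates. In bulk tissue, fewer cells of a type and less RNA per cell cannot be told apart, here and in every comparison that follows.

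Adra2c ran beside markers of oligodendrocytes, of medium spiny neurons and of the dorsal striatum. The 7 oligodendrocyte markers summed to 945 to 1286 CPM in the first 5 saline ventral and 1829 to 2397 in the saline dorsal libraries. Of these, 7 of 7 were called higher in saline and 4 of 7 in oxycodone mice, beside 23.6% and 23.5% of all genes. Other lists held genes called higher too. Of 7 microglia markers these were 5 in saline and 5 in oxycodone mice, and of 7 choroid plexus and ependyma markers 5 and 0. Of 7 common medium spiny neuron markers 4 and 3 were called higher, and 1 was lower in oxycodone mice. Together they summed to 2440 to 2951 CPM in the first 5 saline ventral and 4924 to 5579 in the saline dorsal libraries. Dorsal striatum markers summed to 1153 to 1245 CPM in saline ventral and 3338 to 3954 in saline dorsal libraries. Oxycodone ventral replicate 6 had oligodendrocyte markers at 2018 CPM and common medium spiny neuron markers at 5914, beside 1718 to 2533 and 4706 to 5579 in dorsal libraries. Its Adra2c level was 26.4 CPM, in a group that ran from 16.2 to 29.7. The part of these cell types in the Adra2c difference was not tested.

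Adrb1, the gene of the beta1 receptor, was also higher in dorsal striatum. Saline ventral libraries ran from 5.32 through a median of 5.62 to 11.6 CPM, the last in replicate 6, and oxycodone ventral libraries from 6.37 through 7.30 to 7.41 CPM. Saline dorsal libraries held 14.4, 28.7, 12.2, 10.4 and 12.9 CPM and oxycodone dorsal ones 17.95, 16.3, 11.2, 11.5 and 15.9 CPM. The oxycodone groups did not overlap, and the saline groups overlapped only through ventral replicate 6, above which 4 of 5 dorsal libraries lay. The log2 change was 1.19 with SE 0.29 and edgeR adjusted p 0.00364 in saline mice, from 6.82 ± 2.47 to 15.7 ± 7.39 CPM (SD, n = 6 and 5). In oxycodone mice it was 1.02 with SE 0.16 and edgeR adjusted p 7.26e-05, from 7.07 ± 0.454 to 14.6 ± 3.05 CPM (SD, n = 6 and 5). The ratio of saline means was 2.3 with all libraries and 2.68 without ventral replicate 6.

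Adra1a, the gene of the alpha1A receptor, went the other way. Saline ventral libraries ran from 14.0 through a median of 16.7 to 19.6 CPM, and saline dorsal libraries held 8.61, 7.56, 11.9, 8.52 and 8.70 CPM, so that every dorsal library lay below every ventral one. Oxycodone ventral libraries ran from 7.95 through 13.6 to 15.7 CPM and oxycodone dorsal libraries held 7.00, 7.47, 5.24, 11.3 and 8.25 CPM, with 3 of 5 dorsal libraries below all ventral ones. In saline mice the means were 16.8 ± 1.8 and 9.05 ± 1.64 CPM (SD, n = 6 and 5), which is -0.90 on the log2 scale (SE 0.15, edgeR adjusted p 0.000218). In oxycodone mice they were 12.3 ± 3.12 and 7.86 ± 2.23 CPM (SD, n = 6 and 5), which is -0.67 (SE 0.22, edgeR adjusted p 0.0179). Without the sixth ventral replicates the ratio of dorsal to ventral Adra1a means was 0.537 in saline and 0.596 in oxycodone mice, against 0.54 and 0.638 with them. The oxycodone call was lost without oxycodone ventral replicate 2, at -0.57 and edgeR adjusted p 0.0535.

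Adra2a, the gene of the alpha2A receptor, which on noradrenergic terminals acts as an autoreceptor, was lower in dorsal striatum of saline mice. Saline ventral libraries ran from 1.36 through a median of 3.95 to 5.47 CPM, and saline dorsal libraries held 0.888, 0.967, 2.3, 0.319 and 1.59 CPM. The groups overlapped, with 3 of 5 dorsal libraries below all ventral ones. The log2 change was -1.62 with SE 0.50 and edgeR adjusted p 0.0152, from 3.72 ± 1.69 to 1.21 ± 0.757 CPM (SD, n = 6 and 5). The saline call was lost with title numbers shared between regions as a replicate block, at edgeR adjusted p 0.0824. On the same libraries without the block the edgeR adjusted p was 0.0446. In oxycodone mice the means were 4.17 ± 2.77 and 1.95 ± 1.58 CPM (SD, n = 6 and 5), and the log2 change of -1.10, with SE 0.58 and edgeR adjusted p 0.135, did not pass. Without oxycodone dorsal replicate 2, at 4.60 CPM the highest of its group, it was -1.70 with edgeR adjusted p 0.0295. The saline ratio of Adra2a means was 0.326 with ventral replicate 6 and 0.36 without it. The counts behind these levels were small, from 7 to 80 a library over all groups.

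Adra1b, Adra1d and Adra2b passed in neither region comparison. For Adra2b, the gene of the alpha2B receptor, group means were 2.69, 2.82, 2.71 and 2.45 CPM in saline ventral, oxycodone ventral, saline dorsal and oxycodone dorsal libraries, with ranges that overlapped throughout. Its log2 change between regions was 0.00 (95% interval -1.07 to 1.08) in saline and -0.22 (-0.98 to 0.54) in oxycodone mice. For Adra1b, the gene of the alpha1B receptor, the saline change was -1.26 (-2.85 to 0.33) with ventral replicate 6 and 0.14 without it. The oxycodone change of Adra1b was -0.69 (-1.50 to 0.12), from 3.89 ± 1.49 to 2.43 ± 1.37 CPM (SD, n = 6 and 5), with 3 of 5 dorsal libraries below all ventral ones. Adra1d, the gene of the alpha1D receptor, had 0 counts in 2 oxycodone dorsal libraries, where 3 counts would be 0.168 and 0.213 CPM, and 2 to 40 counts in the other dorsal libraries, and its intervals reached from -4.93 to 0.91 in saline and from -2.07 to 1.42 in oxycodone mice. The ratio of dorsal to ventral Adra1d means in saline mice was 0.261 with ventral replicate 6 and 1.90 without it, so the direction turned.

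**Figure D3:**
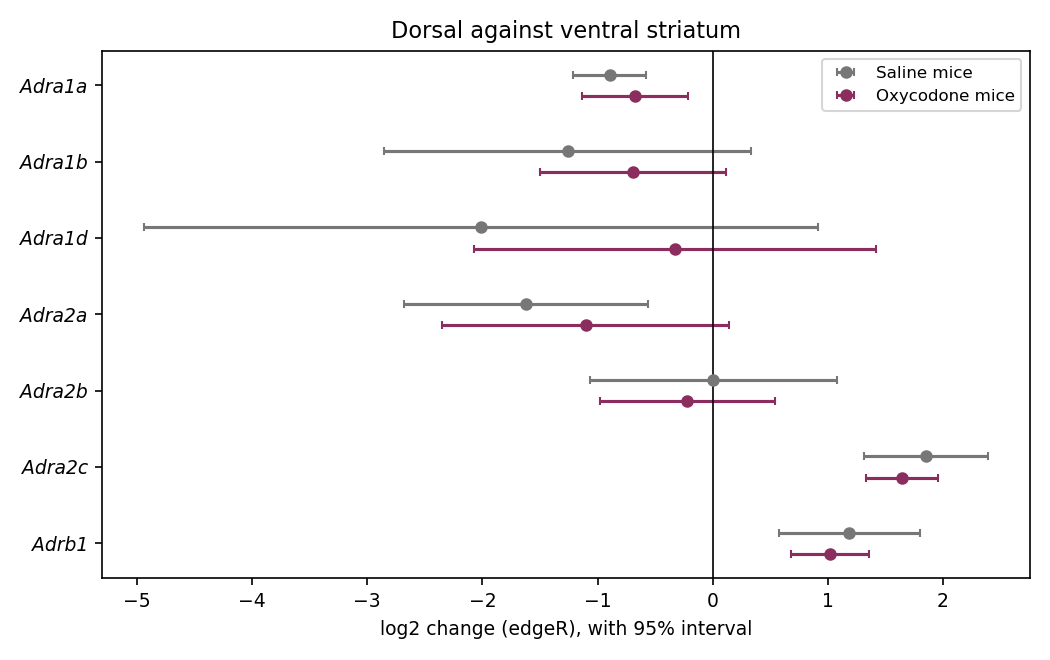
Log2 change of each receptor gene in dorsal against ventral striatum from the edgeR fit, in saline mice (grey) and in oxycodone mice (purple), with 95% intervals. The intervals of Adra2c and Adrb1 lie above 0 and that of Adra1a below 0 in both, and that of Adra2a lies below 0 in saline mice.

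Transcript GC content and region also moved together. The longest transcripts held 65.5% GC for Adra2c, 65.4% for Adra1d, 58.8% for Adrb1, 58.6% for Adra2a, 54.5% for Adra1b, 53.6% for Adra2b and 50.1% for Adra1a. Across all genes with a value, which are not independent replicates, the Spearman correlation of GC with the region change was 0.16 in saline and 0.20 in oxycodone mice. With a GC offset for each library the Adra2c change was 1.47 in saline and 1.32 in oxycodone mice, and the Adrb1 change 1.02 and 0.86. All 7 calls, 4 in saline and 3 in oxycodone mice, passed with the offsets.

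The treatment comparison, oxycodone against saline, was made region by region. In ventral striatum 0 of 7 receptor genes were called, beside 0% of all 14116 genes, of which 1289 had an unadjusted p under 0.05. DESeq2 called 38 genes and limma-voom 61, none of them a receptor gene. In dorsal striatum 0 of 7 were called, beside 0.206% of all 14595 genes, with 823 at an unadjusted p under 0.05. DESeq2 called 86 genes there and limma-voom 32, again no receptor gene. The median log2 change of the 7 was 0.05 in ventral and -0.14 in dorsal striatum, and 0.26 in ventral striatum without both sixth replicates.

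Adra1a had lower levels in oxycodone ventral libraries without passing the test. All 6 lay below the saline median of 16.7 CPM, and 4 of 6 lay below every saline library. The log2 change was -0.44 with SE 0.16 (95% interval -0.78 to -0.10), an unadjusted p of 0.0149 and an edgeR adjusted p of 0.487. Oxycodone replicates 1 and 6 were lowest, at 8.93 and 7.95 CPM, and replicate 6 is 1 of the libraries that stood apart. The change was -0.36 without both sixth replicates and -0.37 in the 8 libraries of lane 1, with edgeR adjusted p of 0.384 and 0.802. It kept its sign in 25 of 25 alternatives, from -0.51 to -0.31. In dorsal striatum the Adra1a change was -0.20 (95% interval -0.74 to 0.33), from 9.05 to 7.86 CPM, and 3 of 5 oxycodone libraries lay below all saline ones.

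Adra1b and Adra1d owed their negative ventral changes to 1 saline library. Saline ventral replicate 6 held 361 counts of Adra1b, 34.1 CPM, against 2.81 to 3.42 CPM in the other 5 saline and 2.36 to 5.75 CPM in the 6 oxycodone libraries. It held 290 counts of Adra1d, 27.4 CPM, against 0.321 to 1.51 CPM in the other 5 and 0.456 to 1.67 CPM in the oxycodone libraries. With it the log2 changes were -1.12 (95% interval -2.56 to 0.33) for Adra1b and -2.11 (-4.42 to 0.20) for Adra1d, and without it they were 0.27 and 0.77, with edgeR adjusted p of 0.664 and 0.436. In that library Adra2b stood at 0.566 CPM and Adra2c at 7.74 CPM, the lowest of their group, while Adra1a, at 16.3 CPM, was close to the median. In dorsal striatum the Adra1b change was -0.54 (-1.53 to 0.44) and the Adra1d change -0.43 (-2.46 to 1.61).

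**Figure D4:**
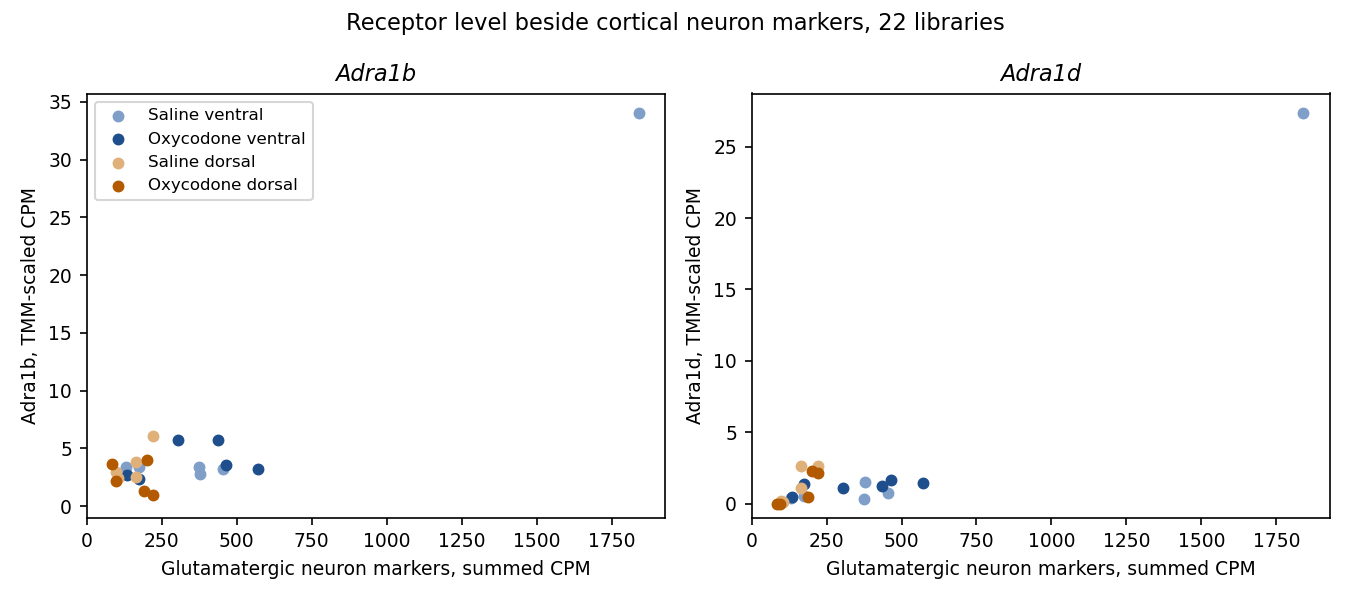
Adra1b (left) and Adra1d (right) in TMM-scaled CPM against the summed CPM of 10 cortical glutamatergic neuron markers, 1 point a library, coloured by group. Saline ventral replicate 6, at 1840 CPM of markers, holds 34.1 CPM of Adra1b and 27.4 of Adra1d, and the other 21 libraries, at 85.9 to 572 CPM of markers, hold at most 6.04 and 2.66.

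The alpha2 genes and Adrb1 showed small or uncertain oxycodone changes. Adra2c was 0.35 higher on the log2 scale in ventral (95% interval -0.15 to 0.84) and 0.15 higher in dorsal striatum (-0.15 to 0.45), without passing. The dorsal interval of Adra2c leaves out rises above 0.45 and falls beyond -0.15. That interval is unadjusted and takes the dorsal libraries as separate animals, which cannot be assumed. Without both sixth replicates the ventral Adra2c value was 0.12. Adra2a differed by 0.17 (-0.90 to 1.24) and 0.69 (-0.65 to 2.04), and Adra2b by 0.08 (-0.70 to 0.86) and -0.14 (-1.24 to 0.95), in ventral and dorsal striatum. Adrb1 differed by 0.05 (-0.36 to 0.47) in ventral and -0.10 (-0.59 to 0.39) in dorsal striatum. Without both sixth replicates the ventral values were 0.52 for Adra2a, -0.16 for Adra2b and 0.26 for Adrb1, with edgeR adjusted p of 0.755, 0.893 and 0.505. All 6 oxycodone ventral libraries lay above the saline median of Adrb1, while saline ventral replicate 6, at 11.6 CPM, lay above all 6. The Adrb1 dorsal value turned to 0.23 without saline dorsal replicate 2, whose 28.7 CPM was the highest of all libraries.

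**Figure D5:**
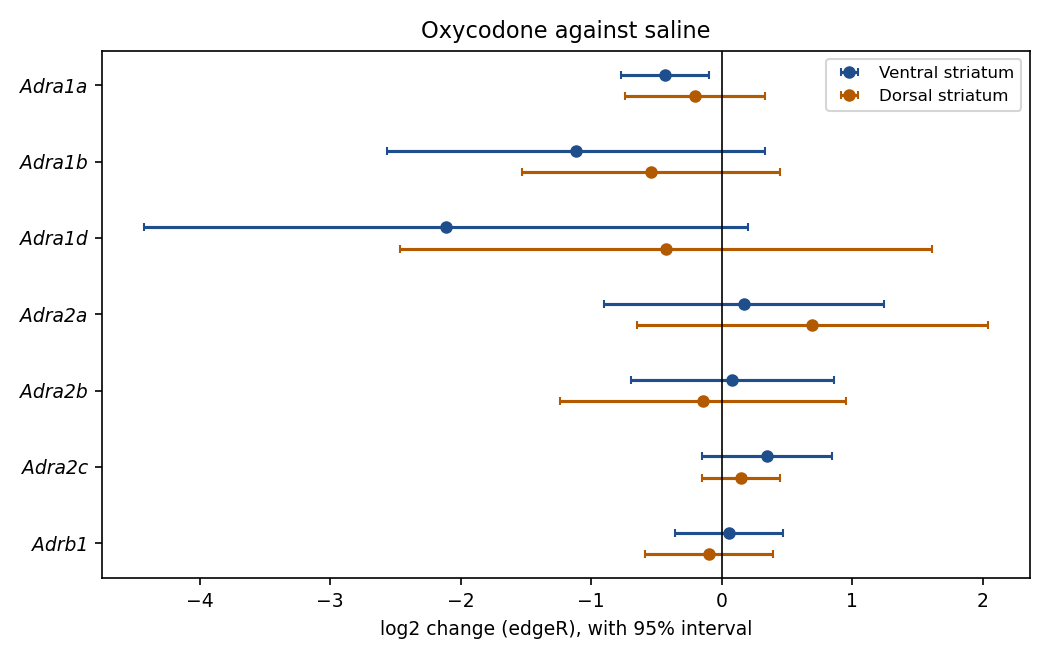
Log2 change of each receptor gene in oxycodone against saline libraries from the edgeR fit, in ventral (blue) and dorsal (orange) striatum, with 95% intervals. Of the 14 intervals, that of Adra1a in ventral striatum, from -0.78 to -0.10, leaves out 0 before adjustment over all genes, and none passed after it.

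Whether oxycodone acted differently in the regions was tested as an interaction over all 22 libraries. None of the 7 receptor genes was called, beside 0% of all 14938 genes in edgeR, with 674 at an unadjusted p under 0.05 and 0 called by DESeq2 or limma-voom. Estimates ran from -0.21 for Adra2b to 1.69 for Adra1d. The most precise were those of Adra1a at 0.24 (95% interval -0.31 to 0.79), Adra2c at -0.19 (-0.82 to 0.44) and Adrb1 at -0.15 (-0.83 to 0.54). Without saline ventral replicate 6 the Adra1b and Adra1d values turned from 0.58 and 1.69 to -0.80 and -1.17.

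Genes whose levels ran most like those of each receptor were named by Pearson correlation of log2 CPM over the 22 libraries, which share region, depth and library type. For Adra2c these were Mal (r = 0.98), Plekhb1 (0.98) and Cldn11 (0.97), and Mal and Cldn11 encode myelin proteins of oligodendrocytes. Over the 20 libraries without both sixth replicates r was 0.97 for each of them. For Adrb1 they were Gtpbp3, Jph3 and Tmem115, at 0.94, 0.93 and 0.93. For Adra1a they were Zfp941, Phlpp2 and Usp34, each at 0.90. For Adra2a, Smap1, Srcin1 and Sfrp4 ran alike at 0.84, 0.82 and 0.81, and for Adra2b, Map10, Rpp21 and Kyat1 at 0.84, 0.74 and 0.73.

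For Adra1b, Adra1d and Adra2b the likeness was lower without both sixth ventral replicates. The genes were picked over the 22 libraries, which favours higher values there. Map10, Rpp21 and Kyat1 ran like Adra2b at 0.78, 0.71 and 0.64 over 20 libraries. Nol4, Shisa4 and Pgm2l1 ran like Adra1b at 0.87, 0.84 and 0.83 over 22 libraries, and at 0.64, 0.64 and 0.45 over 20. Xirp2, Nrn1 and Sowahb ran like Adra1d at 0.89, 0.83 and 0.80, and at 0.81, 0.71 and 0.67 over 20. Nrn1, which encodes a neuronal surface protein, stood at 161 CPM in saline ventral replicate 6 and at most 23.6 in the other 21. Among the receptors themselves, Adra2c and Adrb1 correlated at 0.75 over 22 and 0.90 over 20 libraries, and Adra1a and Adra2c at -0.83 and -0.88.

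Genes of noradrenaline handling and of receptor signalling were taken as 3 lists, of 14, 29 and 17 genes. In the oxycodone comparisons and the interaction 0 genes of the 3 lists were called. In ventral striatum, Maoa, a monoamine oxidase, differed by -0.21, and in dorsal striatum by -0.20, in neither past the test. Grk2, a receptor kinase, and Arrb2, an arrestin that binds phosphorylated receptors, differed by -0.17 and 0.00 in ventral and by 0.06 and 0.07 in dorsal striatum. Slc18a2, the vesicular monoamine transporter, differed by -0.24 and 0.09.

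Dbh, which makes noradrenaline from dopamine, had at most 4 counts in a library, and Slc6a2, the noradrenaline transporter, at most 8. These genes were not tested.

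Between regions, 3 of the 9 tested genes of noradrenaline synthesis, storage, uptake and breakdown were higher in dorsal striatum of saline mice and 1 was lower, with a list median of 0.14. Slc22a3, a low-affinity uptake transporter for monoamines, rose by 1.60 in saline and 1.08 in oxycodone mice, and Akr1b3, an aldose reductase, by 0.73 and 0.59. Slc18a2 fell by 1.35 and 1.04. Maoa differed by 0.00 and -0.01, and passed in neither. In oxycodone mice 2 of 9 were higher and 1 lower, with a median of 0.10.

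Of the 28 tested G protein and effector genes, 7 were higher and 11 lower in dorsal striatum of saline mice, and 9 higher and 10 lower in oxycodone mice, with medians of -0.09 and -0.05. Itpr1, the inositol trisphosphate receptor downstream of phospholipase C, rose by 1.28 and 0.89. In saline mice Hcn2, a cyclic nucleotide-gated channel, rose by 0.79 and Plcb1, a phospholipase C, by 0.65, and in oxycodone mice Gna11, a Gq family subunit, rose by 0.70 and Kcnj9, a G protein-gated potassium channel subunit, by 0.67. Gng2, a G protein gamma subunit, fell by 2.44 and 1.35. Kcnj6, a further potassium channel subunit, fell by 1.34 in saline mice, and Prkca, a protein kinase C, fell by 0.90 in oxycodone mice.

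Of the 17 desensitisation and scaffold genes, 4 were higher and 5 lower in dorsal striatum of saline mice, and 3 higher and 6 lower in oxycodone mice, with medians of -0.03 and -0.20. Ywhaz, a 14-3-3 protein, rose by 0.87 and 0.91 and Rgs5, a regulator of G protein signalling, by 0.72 and 0.76. Rgs4, of the same family, rose by 1.36 in saline mice and Grk6, a receptor kinase, by 0.22 in oxycodone mice. Grk3, a receptor kinase, fell by 0.97 and 0.59, and Magi2, a scaffold protein, by 0.55 and 0.65. Akap12, an anchor of protein kinase A, fell by 0.78 in saline mice, and Arrb2 fell by 0.51 and 0.45. Grk2 differed by -0.42 with edgeR adjusted p 0.0518 and by -0.20, and passed in neither. Over all genes 45.8% were called in saline and 47.2% in oxycodone mice. The G protein and effector list lay above these shares, with 7 higher and 11 lower of 28, and 9 higher and 10 lower of 28. The desensitisation and scaffold list, with 4 higher and 5 lower of 17, and 3 higher and 6 lower of 17, lay near them. So did the noradrenaline list, with 3 higher and 1 lower of 9, and 2 higher and 1 lower of 9. These counts set neither of the 2 lists apart from all genes. No set test was run.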

How the data were processed

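Bulk RNA was measured in 22 libraries, and the deposited table holds raw read counts per Ensembl gene, made by the authors with CASAVA 1.8.2, STAR 2.3 and featureCounts per the submitters' processing notes, where mm9, mm10 and GRCm38 are listed as builds with no role. Read mates, multi-mapping reads and strand setting are not given in the sources used here. Libraries were prepared with a stranded total RNA kit that removes ribosomal RNA, per the labels' protocols. Symbols, positions and lengths come from GENCODE M21 on GRCm38 for 22205 of 23119 identifiers. Counts of 0 limit a level to 3 counts of the library, and such limits cover counting error only. They take each count as a separate read. Low dorsal counts were mostly even, so the limits may be too low in dorsal libraries.

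Each comparison was fitted over all genes kept by filterByExpr with the edgeR 4.0.16 quasi-likelihood test (R 4.3.3, robust dispersions, TMM factors, two-sided), with Benjamini-Hochberg adjustment and a threshold of 0.05. Intervals are 95%. The script was tested on simulated data, with changes placed only in genes with a mean above 5 CPM. Of genes changed by 1 on the log2 scale it called 89% in the ventral, 81% in the dorsal and 69% in the interaction comparison. It called 71% in the saline region and 90% in the oxycodone region comparison. These rates do not describe genes at lower levels. Simulated libraries were independent draws around a common mean for each gene, with no library in which many genes shift together. The rates thus do not give the power of the comparisons made here. Over the 22 libraries Adra1b, Adra1d, Adra2a and Adra2b averaged 4.71, 2.26, 2.87 and 2.67 CPM. Alternatives used DESeq2 1.42.0, limma 3.58.1, other scaling, filters, lengths and subsets of libraries. GC offsets, halved dorsal counts and summed dorsal pairs between regions were added after seeing the data. Members and lists were chosen with earlier results of these data known. All members are named. For each, the 3 genes with the highest correlation of log2 CPM (prior count 2) are given where the member's mean is at least 1 CPM. Of the lists, genes past the threshold are named, or where over 6 passed the 3 largest changes each way, with Dbh, Slc6a2, Slc18a2, Maoa, Grk2 and Arrb2 always, and marker genes by summed level. The level of Nrn1 was added after its values were seen. Some genes that this rule names are not reported here.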

Additional observations from a re-analysis of the deposited data

Results flagged for a closer look

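In 5 of 28 sets of 1 gene in 1 group, the highest library lay far from the rest by Dixon's ratio of its gap to the range of the group. About 1 in 20 such sets is expected by chance. In 3 of the 5 the library was saline ventral replicate 6, with a ratio of 0.980 for Adra1b (34.1 CPM, the next 3.42), 0.956 for Adra1d (27.4 CPM, the next 1.51) and 0.673 for Adrb1 (11.6 CPM, the next 7.38), against a critical value of 0.625. Saline dorsal replicate 3 had a ratio of 0.737 for Adra1a (11.9 CPM, the next 8.70), and saline dorsal replicate 2 a ratio of 0.782 for Adrb1 (28.7 CPM, the next 14.4), against a critical value of 0.71.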

How the results depend on the processing

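Of 925 member values under an alternative, 869 kept their sign. The 56 that turned belonged to genes not called in that comparison, and none passed the threshold. The number of members called stayed within 1.5 times its main value under every alternative run. Over all genes, DESeq2 called 38 and limma-voom 61 in ventral striatum against 0, DESeq2 86 and edgeR without robust dispersions 58 in dorsal striatum against 30, no filter 45, all groups in 1 fit 5, and the fits leaving out 1 dorsal library 1 to 63. The longest transcript as the length moved 8 positions of the order, and DESeq2 factors moved 0. In ventral striatum, limma-voom gave 0.12 for Adra1b, 0.67 for Adra1d and -0.27 for Adra2b, leaving out both sixth replicates 0.38, 0.72 and -0.16, and lane 1 alone 0.26, 0.52 and -0.090. In dorsal striatum Adrb1 was 0.13 with limma-voom, 0.036 with the title suffix as covariate, 0.057 with summed pairs and 0.19 in suffix P libraries, where Adra1d was 0.43, and Adra2b was 0.19 without them. For the interaction, limma-voom gave -0.64 for Adra1b, -1.77 for Adra1d and 0.10 for Adra2c, and leaving out both sixth replicates -0.92, -1.16, and 0.011 for Adra2c, with 0.0077 for Adra2b. In the saline region comparison Adra2b, at 0.0047, was -0.00098 with DESeq2 factors, -0.0029 with no filter, -0.0025 with DESeq2, -0.17 with limma-voom and -0.076 with GC offsets. The cause of these turns was not tested, apart from the libraries left out.

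Leaving out 1 library at a time gave, in ventral striatum, -1.29 to 0.27 for Adra1b, -2.35 to 0.77 for Adra1d, -0.11 to 0.37 for Adra2a, -0.14 to 0.29 for Adra2b and -0.011 to 0.28 for Adrb1. In dorsal striatum it gave -0.52 to 0.21 for Adra2b and -0.22 to 0.23 for Adrb1. For the interaction it gave -0.80 to 0.84 for Adra1b, -1.17 to 2.10 for Adra1d, -0.072 to 0.89 for Adra2a, -0.59 to 0.12 for Adra2b and -0.37 to 0.18 for Adrb1. Between regions it gave -1.52 to 0.14 for Adra1b and -0.34 to 0.22 for Adra2b in saline mice, and -0.94 to 0.027 for Adra1d in oxycodone mice.

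Title numbers shared between regions were tried as a replicate block. Same-numbered libraries deviated together with correlations of -0.08 to 0.06 in saline and -0.04 to 0.31 in oxycodone mice. In each treatment 1 of 5 dorsal libraries correlated best with its own number. A low correlation between regions cannot show whether equal numbers mark the same animal, so pairing is undecided. The main comparisons used no block. With the replicate block, 3 members were called in saline mice against 4 without it on the same libraries, and 3 in oxycodone mice with and without it. Adra2a had an edgeR adjusted p of 0.0824 with the block and 0.0446 without it. In saline mice Adra1b was 0.030 and Adra2b -0.26 with the block, and 0.075 and -0.14 without it. Some alternatives gave no value for Adra1d or Adra2a, which the filter then removed. Depth limits Adra1d, Adra2a and Adra2b most, at medians of 6 to 54 counts in a group of libraries.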
